A study of Mus musculus with 12 samples.

Results

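The genes described here encode ATP-dependent chromatin remodellers and their subunits: 37 genes of the SWI/SNF, CHD, ISWI and INO80 families, out of 21900 protein-coding genes in the RefSeq table of the mouse GRCm38.p6 assembly. They were chosen by name, and an m6A peak was counted for a gene when it overlapped the gene's RefSeq span by at least 1 base. m6A (N6-methyladenosine) is a methyl mark on adenosines of messenger RNA, mapped here by antibody pull-down of poly(A) RNA fragments of about 200 nt. The data were the peak lists of 3 libraries of induced neural stem cell-like cells (iNSCs) and 3 libraries of mouse spermatogonial stem cells (SSCs), the germline stem cells of the testis, and the study asked how the mark differs between them.

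The SSCs had been grown on mitotically inactivated STO fibroblast feeders with serum, LIF, EGF, GDNF and 10 ng/mL bFGF. The iNSCs had been derived from such SSCs after plating on laminin, with SSC medium plus 1 µM retinoic acid for 24 h and then a neural medium with 20 ng/mL bFGF and 10 µM SB431542, which blocks TGF-β type I receptors. No genetic change is named for either group, and strain, donor age and the length of time in the neural medium are not stated in the labels. Groups and replicate numbers follow the sample titles, because the cell type field names the opposite cell type in 12 of 12 samples. Whether the numbered replicates were separate cultures is not stated, so the spread between them may be technical.

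Remodellers of the SNF2 superfamily use ATP to slide, evict or exchange nucleosomes. SWI/SNF complexes, called BAF in mammals, are built from an ATPase, a shared core and interchangeable subunits, and they occur as canonical BAF, as PBAF and as a non-canonical form (ncBAF). In the developing nervous system, leaving the progenitor state goes with an exchange of subunits, in which Actl6a, Ss18 and progenitor Dpf-family proteins give way to Actl6b, Ss18l1, Dpf1 and Dpf3. CHD proteins carry chromodomains, ISWI enzymes space nucleosomes, and the INO80 group exchanges histone variants.

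Peaks at gene starts show how exactly some list entries followed the gene model, so the start windows of 6 members are printed. Of 30 members with a start window in the RefSeq table, 15 had a called region (overlapping peaks of any libraries, merged) within the 50 bases after an annotated start. In 8 of these genes the region was called in all 3 lists of a cell type. Of the 8, Smarcc2 and Smarcd3 are not printed. The same shares over all genes were not counted, so these numbers show no trait of remodeller genes. Each sequence below runs from 50 bases before the annotated start through the first 30 bases of the transcript, 5′ to 3′ on the gene's strand, from RefSeq GRCm38.p6, with the bases under the called region in capitals. The windows are chr17:4995024-4995103 (plus strand) for Arid1b, chr11:107132118-107132197 (minus strand) for Bptf, chr8:88362143-88362222 (minus strand) for Brd7, chr6:125095931-125096010 (plus strand) for Chd4, chr8:90932199-90932278 (plus strand) for the second annotated start of Chd9, and chr2:119477658-119477737 (minus strand) for Ino80.
Arid1b: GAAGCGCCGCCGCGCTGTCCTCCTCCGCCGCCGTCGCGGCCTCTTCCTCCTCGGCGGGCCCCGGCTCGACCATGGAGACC
Bptf: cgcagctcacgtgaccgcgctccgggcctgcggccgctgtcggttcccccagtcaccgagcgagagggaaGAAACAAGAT
Brd7: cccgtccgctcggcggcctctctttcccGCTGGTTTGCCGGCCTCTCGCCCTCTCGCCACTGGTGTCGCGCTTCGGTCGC
Chd4: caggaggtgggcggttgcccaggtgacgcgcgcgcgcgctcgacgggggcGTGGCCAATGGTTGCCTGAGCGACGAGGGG
Chd9: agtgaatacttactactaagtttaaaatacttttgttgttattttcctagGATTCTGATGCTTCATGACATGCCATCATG
Ino80: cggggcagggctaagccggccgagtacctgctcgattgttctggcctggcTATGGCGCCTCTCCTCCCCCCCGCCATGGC

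In Chd4, Chd9 and Ino80 the capitals begin on the annotated start base itself, so the edge of the called region and the edge of an annotated transcript coincided. Each of these 3 regions was called in 3 iNSC lists and 1 SSC list, which was SSC 3 for Chd4 and Ino80 and SSC 1 for Chd9. In windows not printed, regions of Smarcc2, Smarcc1, Actl6a and Arid1a also began on an annotated start base. They were called in 2, 1, 2 and 0 iNSC lists and in 3, 2, 2 and 1 SSC lists, in that order. The Arid1b, Bptf and Brd7 regions were called in all 6 lists. In Arid1b the region extended 135 bases upstream of the annotated start printed here and in Brd7 22 bases. The printed starts of Arid1b, Brd7, Chd9 and Ino80 lie inside the RefSeq span of their gene. The Arid1b and Brd7 regions therefore did not extend beyond the span. The core of the m6A consensus, GGAC, was found in none of the 17 windows of members that lay under a region, searched over the 50 bases after the start, and its reverse complement GTCC in 5 of them. Among all 32851 start windows of the table, 18.9% held GGAC, 17.4% held GTCC and 33.3% held either. The absence of GGAC says only that these letters do not occur in these 50 bases.

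The iNSC lists were shorter than the SSC lists, with 13913, 16002 and 16060 peaks in iNSCs 1, 2 and 3 and 27597, 19728 and 24775 in SSCs 1, 2 and 3. The lists carry no read counts, so depth is unknown. The input libraries were not analysed here. A missing peak therefore does not separate an unmethylated transcript from an absent one, and fewer cells of a type cannot be told apart from less RNA per cell. Markers were checked by their peaks alone. Of 10 germ cell markers, 1, 1 and 2 had a peak in the iNSC lists and 8, 5 and 6 in the SSC lists. Ddx4, Zbtb16, Sall4, Id4 and Lhx1 had a peak in every SSC list. Etv5 had a peak in every iNSC list and in SSCs 1 and 3. Of 10 neural stem cell markers, 2 had a peak in each iNSC list, Pax6 and Nes, and 5, 4 and 4 in the SSC lists. Sox2, Vim and Msi1 had no peak in the iNSC lists and a peak in every SSC list. Of 10 feeder fibroblast markers, 5, 4 and 5 had a peak in iNSCs and 6, 4 and 9 in SSCs, and of 8 testis somatic markers 1 had a peak in each iNSC list and 4, 5 and 3 in the SSC lists. The part of these other cell types in the results below was not tested.

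Most remodeller genes carried m6A peaks in both cell types. Of the 37 genes, 34 had a peak in at least 1 list, against 60.3% of all protein-coding genes, and 26 had a peak in all 6 lists, against 30.1% of the genes with any peak. The BAF genes Smarcb1, Dpf2 and Actl6b had no peak in any list. Smarcb1 encodes a core subunit, Dpf2 a histone-reading subunit and Actl6b the neuronal actin-like subunit. The remaining 8 genes had a peak in 1 to 5 lists, and 7 of them are BAF genes. Remodeller genes are long, with a median span of 51549 bases against 17146 for all genes, and a longer span gives more room for peaks. Of the 4803 genes at least as long as the median remodeller, which include 19 of the 37, 44.7% ± 1.32 had a peak in iNSCs and 64.3% ± 6.24 in SSCs.

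The share of remodeller genes with a peak was 78.4%, 78.4% and 81.1% in the iNSC lists and 83.8%, 83.8% and 91.9% in the SSC lists. Every iNSC list was below every SSC list, and the means were 79.3% ± 1.56 and 86.5% ± 4.68 (SD, n = 3 each), a difference of -7.21 points. Over all genes the means were 31.1% ± 1.31 in iNSCs and 42.6% ± 4.64 in SSCs. Remodeller genes with a peak held 6.09 ± 0.297 peaks each in iNSCs and 6.71 ± 0.698 in SSCs, and the lists of the cell types overlapped. All genes with a peak held 2.21 ± 0.0870 and 2.52 ± 0.187. Those at least as long as the median remodeller held 3.13 ± 0.157 in iNSCs and 3.68 ± 0.388 in SSCs. The difference in peaks per remodeller gene, iNSC minus SSC as throughout, was -0.62, and with all lists shortened by score to 13913 entries it was 0.36, a turned direction.

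The peaks in iNSCs were fewer but wider. Remodeller peaks numbered 169, 186 and 181 in the iNSC lists and 233, 195 and 215 in the SSC lists, yet they covered 78888 ± 1384 bases in iNSCs and 68512 ± 4818 in SSCs, 1.15 times as many. Their median width was 201 ± 14.7 bases in iNSCs and 167 ± 9.64 in SSCs, with no overlap between the lists. The same difference was larger over all genes, with a median of 399 ± 32.6 bases in iNSCs and 200.0 ± 6.24 in SSCs. For genes at least as long as the median remodeller the medians were 268 ± 21.7 and 169 ± 4.16 bases. Remodeller peaks lay less often at the gene end than peaks in general, a difference that was not tested. Of them, 5.03% ± 0.325 in iNSCs and 4.18% ± 0.540 in SSCs lay in the last 2000 bases of the gene span, against 22.7% ± 1.36 and 16.9% ± 1.45 of all peaks in genes. In genes at least as long as the median remodeller the shares were 11.9% ± 0.766 and 8.05% ± 1.40. The median remodeller peak lay 49.3% ± 3.55 of the way along its gene in iNSCs and 53.0% ± 1.67 in SSCs, against 70.7% ± 2.71 and 64.6% ± 3.22 for all peaks in genes. The share in the first 500 bases was 4.73%, 2.15% and 6.08% in the iNSC lists and 4.29%, 4.62% and 6.51% in the SSC lists, and it did not separate the cell types.

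**Figure D1:**
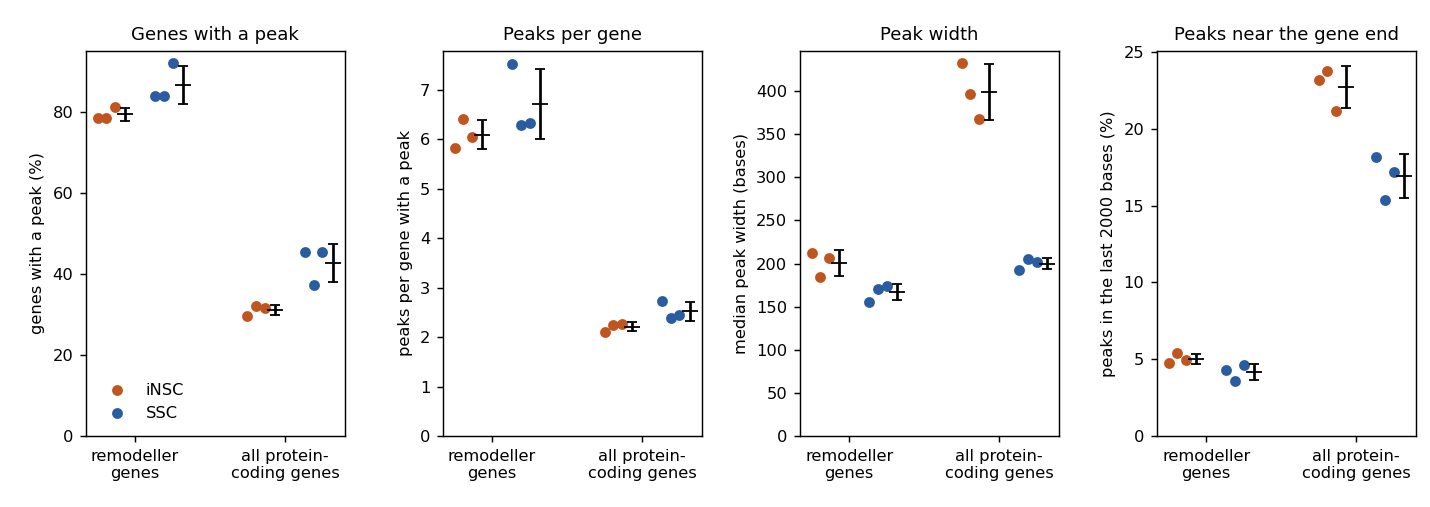
Share of genes with a peak, peaks per gene with a peak, median peak width and share of peaks in the last 2000 bases of the gene span (y axes, linear), for the remodeller genes and all protein-coding genes; points are libraries, and the bar beside them is the mean with its SD (n = 3). Remodeller genes had a peak in 79.3% of cases in iNSCs and 86.5% in SSCs, and few of their peaks, 5.03% and 4.18%, lay near the gene end.

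The members whose peak counts did not overlap between the cell types mostly had more peaks in SSCs, and this depended on list length. No remodeller gene had a peak in all 3 iNSC lists and no SSC list, a pattern called iNSC-only, which 2.17% of all genes with a peak showed. Dpf1 was the 1 gene with the reverse pattern, SSC-only, which 11.3% of all genes with a peak showed. Its difference of -2.67 peaks was -1.67 at equal list length. Chd8 alone had more peaks in every iNSC list than in any SSC list, against a background of 4.22%. Smarca2, Smarcc2, Dpf1, Brd7, Chd5, Chd7, Smarca5, Ino80 and Chd1l, 9 genes, had more peaks in every SSC list, against a background of 16.5%. At equal list length 4 genes had more peaks in every iNSC list (Chd6, Chd8, Chd9 and Ep400) and 4 in every SSC list (Chd5, Smarca5, Ino80 and Chd1l). Within the better-scoring 50% of each list the counts were 0 and 11, and Smarcc2 and Dpf1 were not among the 11 while Smarcc1, Chd1, Chd2 and Ep400 were. Shares over all genes were not counted in these settings, so the counts show only how the calls moved. Of the 26 members with a peak in all 6 lists, 1 had more peaks in every iNSC list and 7 in every SSC list, against 4.16% and 12.3% of the 3967 genes of that kind. The median difference in peaks per gene was -0.67 over the members with a peak and -0.33 over all genes with a peak. In an exact two-sided permutation test, 3 libraries against 3 cannot give a p below 0.1, so no gene could be called significant. The 10 genes just named had that p, which became 0.483 after Benjamini-Hochberg adjustment over the 13197 genes with a peak.

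**Figure D2:**
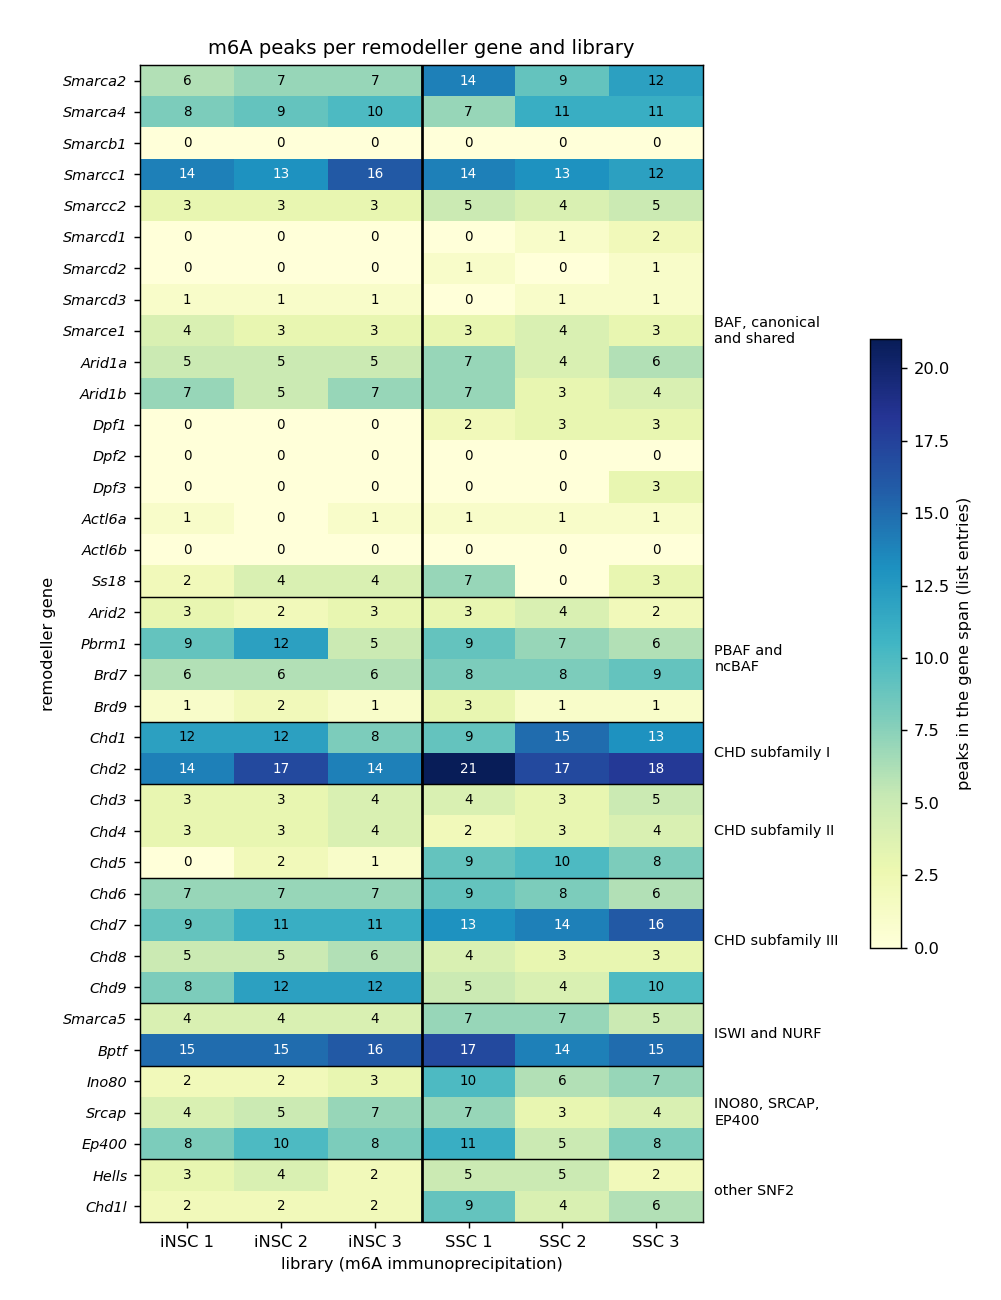
Number of m6A peaks (colour and printed count) in each of the 37 remodeller genes (rows, grouped by complex) and each library (columns, iNSC lists on the left). Chd5, Ino80 and Chd1l stand out with low counts in the 3 iNSC lists and higher counts in the 3 SSC lists, and Smarcb1, Dpf2 and Actl6b have 0 throughout.

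BAF complexes use BRM or BRG1 as their ATPase. Smarca2, which encodes BRM, had 6, 7 and 7 peaks in the iNSC lists and 14, 9 and 12 in the SSC lists. Every SSC count was above every iNSC count. The bases under Smarca2 peaks numbered 1089, 1220 and 1220 in iNSCs and 2732, 1487 and 1792 in SSCs, and 5 of its 18 regions were called in all 6 lists. The difference of -5 peaks was -0.67 at equal list length. Smarca4, which encodes BRG1, the ATPase that embryonic and neural progenitors require, had 8, 9 and 10 peaks in iNSCs and 7, 11 and 11 in SSCs, and these counts overlapped. Of its 13 regions, 7 were shared by all 6 lists.

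The scaffold of the complex is built from a pair of paralogs. Smarcc1, which encodes BAF155, had 14, 13 and 16 peaks in iNSCs and 14, 13 and 12 in SSCs, and 10 of its 17 regions were in all 6 lists. Smarcc2, which encodes its paralog BAF170, had 3 peaks in each iNSC list and 5, 4 and 5 in the SSC lists, and none of its 8 regions was shared by all 6. With lists of equal length the Smarcc2 difference was 0. Smarce1, which encodes an HMG-domain subunit, had 4, 3 and 3 peaks in iNSCs and 3, 4 and 3 in SSCs. Arid1a and Arid1b encode alternative DNA-binding subunits of canonical BAF. Arid1a had 5 peaks in each iNSC list and 7, 4 and 6 in the SSC lists, and Arid1b had 7, 5 and 7 in iNSCs and 7, 3 and 4 in SSCs. Both carried a peak over 1000 bases wide in every list.

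The genes for interchangeable small subunits had few peaks or none. Dpf1, a neuronal subunit gene, had no peak in the iNSC lists and 2, 3 and 3 peaks in the SSC lists. It covered 260, 420 and 935 bases in SSCs, and its best peak stood at the percentiles 40.8, 78.2 and 77.3 of the scores in its list, where a higher percentile is a better score. A percentile is a place within its own list, and since the lists differ in length and in their share of capped scores, it shows no change between the cell types. Dpf1 regions at chr7:29311265-29311392 and chr7:29313082-29313213 were called in all 3 SSC lists. Dpf3, the other neuronal gene of that family, had 3 peaks in SSC 3 and none in any other list. Among the Smarcd genes, which encode alternative BAF60 subunits, Smarcd1 had 1 peak in SSC 2 and 2 in SSC 3, Smarcd2 had 1 in SSC 1 and 1 in SSC 3, and neither had a peak in an iNSC list. Smarcd3 had 1 peak in every list except SSC 1, of 232 bases each time. Without SSC 1, Smarcd1 also counted as SSC-only, and without SSC 2, Smarcd2 did, which made 2 genes each time in place of 1. At equal list length Chd5 was SSC-only and Dpf1 was not.

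Actl6a, the progenitor counterpart of Actl6b, had 1 peak in iNSCs 1 and 3, none in iNSC 2 and 1 in each SSC list. Ss18 had 2, 4 and 4 peaks in iNSCs and 7, 0 and 3 in SSCs. Its covered bases, 978, 2220 and 2260 in iNSCs and 969, 0 and 802 in SSCs, did not overlap between the cell types, by a narrow margin. A region of 1795 bases at the end of Ss18 was called in the 3 iNSC lists alone. As a group, 56.9% ± 3.40 of the 17 BAF genes had a peak in iNSCs and 70.6% ± 10.2 in SSCs, and they held 52.7 ± 3.79 peaks in iNSCs and 63.0 ± 7.81 in SSCs. The lists did not overlap in the share of genes and did in the number of peaks.

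Of the 4 PBAF and ncBAF genes, Brd7 alone had peak counts that did not overlap. Brd7, a bromodomain subunit of PBAF, had 6 peaks in each iNSC list and 8, 8 and 9 in the SSC lists, a difference of -2.33 that was -1 at equal list length. It was also the member with most peaks per length, at 2.21 per 10 kb of span as a mean over the 6 lists. Of its 10 regions, 6 were called in all 6 lists. The region at its start, printed above in part, was below the score cap in the 3 iNSC lists, at the percentiles 77.5, 56.4 and 75.2, and at the cap in the 3 SSC lists. Pbrm1, which encodes polybromo, had 9, 12 and 5 peaks in iNSCs and 9, 7 and 6 in SSCs. Arid2, the ARID subunit gene of PBAF, had 3, 2 and 3 peaks in iNSCs and 3, 4 and 2 in SSCs. The bases covered in Arid2 were 4524, 3675 and 4749 in iNSCs and 4626, 3536 and 108 in SSCs, so SSC 3 stood apart. There the wide Arid2 regions of up to 2843 bases were not called. Brd9, the bromodomain gene of ncBAF, had 1, 2 and 1 peaks in iNSCs and 3, 1 and 1 in SSCs.

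CHD subfamily I held the member with most peaks. Chd2, a chromodomain remodeller gene linked to epilepsy in people, had 14, 17 and 14 peaks in the iNSC lists and 21, 17 and 18 in the SSC lists. Its sum over the 6 lists was 101, and 13 of its 25 regions were in all 6. Chd1, whose product reads methylated histone tails at active genes, had 12, 12 and 8 peaks in iNSCs and 9, 15 and 13 in SSCs, 69 in all. Neither gene separated the cell types. Over both genes, peaks per gene averaged 12.8 ± 1.76 in iNSCs and 15.5 ± 0.500 in SSCs, and these lists did not overlap.

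Chd5 carried the widest gap in peak counts between the cell types. The subfamily II proteins CHD3, CHD4 and CHD5 are ATPases of the NuRD complex, and Chd5 is known for expression in neurons and in the testis. Chd5 had 0, 2 and 1 peaks in the iNSC lists and 9, 10 and 8 in the SSC lists. Its covered bases were 0, 200 and 63 in iNSCs and 1138, 1689 and 1155 in SSCs. The best Chd5 peak stood at the percentiles 7.60 and 2.61 of iNSCs 2 and 3, near the bottom of those lists, and at 86.4, 76.4 and 70.6 in the SSC lists. Chd5 peaks in SSCs were spread along the gene, and of its 17 regions 2 were SSC-only. The first, chr4:152338808-152339030, is centred 273 bases from the gene start, and the other is chr4:152347936-152348063. The difference of -8.00 peaks was -5 at equal list length and -3.33 within the better-scoring 50% of each list.

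Chd3 and Chd4 showed no such gap. Chd3 had 3, 3 and 4 peaks in iNSCs and 4, 3 and 5 in SSCs, and Chd4 had 3, 3 and 4 in iNSCs and 2, 3 and 4 in SSCs. The region at the start of Chd3 was at the score cap in every list. The whole subfamily had 2.56 ± 0.509 peaks per gene in iNSCs and 5.33 ± 0.333 in SSCs, and -8.00 of its difference of -8.33 peaks lay in Chd5.

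**Figure D3:**
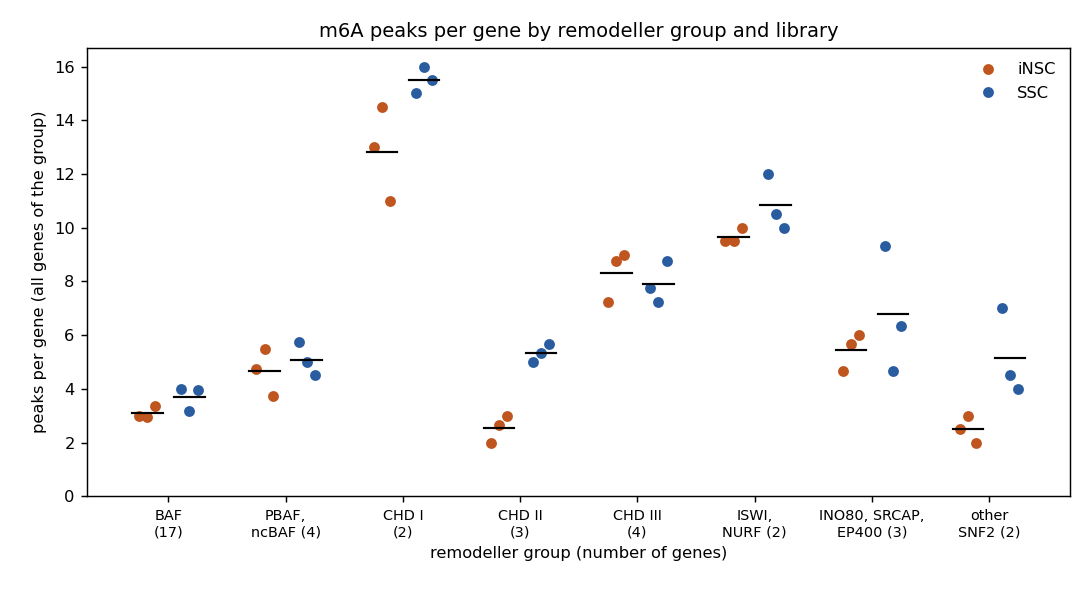
m6A peaks per gene (y axis, all genes of the group counted) in each group of remodeller genes (x axis, number of genes in brackets); points are libraries and lines are group means, iNSCs on the left of each pair. The lists of the cell types do not overlap for CHD subfamily I, CHD subfamily II and the other SNF2 genes.

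CHD subfamily III was the only group whose covered bases did not overlap between the cell types. Its 4 genes had 8.33 ± 0.946 peaks each in iNSCs and 7.92 ± 0.764 in SSCs, and these counts overlapped. The covered bases were 18956 ± 405 in iNSCs and 12200 ± 1365 in SSCs, and the median peak width was 297 ± 63.5 and 198 ± 45.3 bases. Chd9 had the largest difference in covered bases of the 4, with 5567 ± 404 in iNSCs and 1707 ± 621 in SSCs, and Chd7 overlapped. Over all peaks the median widths were 399 ± 32.6 and 200.0 ± 6.24 bases, so wider iNSC peaks were not particular to this group.

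Chd8, an autism-associated gene that is needed in neural progenitors, had 5, 5 and 6 peaks in the iNSC lists and 4, 3 and 3 in the SSC lists. It covered 2724, 2724 and 2907 bases in iNSCs and 1686, 1503 and 1503 in SSCs, 1.78 times as many. Of its 6 regions, 3 were shared by all lists and 2 were called in the 3 iNSC lists alone. The wider of these, chr14:52236730-52237572, spans 843 bases and stood at the percentiles 74.9, 73.0 and 77.5 of the iNSC lists. The other is chr14:52235124-52235501. Within the better-scoring 50% of each list the difference in Chd8 peaks was 0.

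Chd9 had 8, 12 and 12 peaks in iNSCs and 5, 4 and 10 in SSCs, and SSC 3 reached into the iNSC range. Without SSC 3, or without iNSC 1, it joined Chd8, which made 2 genes with more peaks in every iNSC list. Without SSC 1 the second gene was Arid1b. The covered bases of Chd9 were 5101, 5817 and 5783 in iNSCs and 1044, 1800 and 2276 in SSCs, a ratio of 3.26 with no overlap. Its iNSC-only regions were chr8:91033339-91034244, which spans 906 bases, and chr8:90973125-90973236. The region at the second annotated start, whose edge is printed above, spans 1614 bases and was at the percentiles 92.5, 91.2 and 78.3 of the iNSC lists. A further Chd9 region, at chr8:90907939-90908281, is listed on the opposite strand in the 3 iNSC lists and SSC 3. Chd9 alone accounts for 4 of the 9 remodeller peaks listed against the strand of their gene.

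Chd7, the CHARGE syndrome gene, had 9, 11 and 11 peaks in iNSCs and 13, 14 and 16 in SSCs, 74 in all, and its difference of -4.00 was -1.33 at equal list length. Its SSC-only regions were short, at 66 and 56 bases, and the covered bases of Chd7, 6214, 6056 and 6426 in iNSCs and 3814, 6297 and 6793 in SSCs, overlapped. Chd6 had 7 peaks in each iNSC list and 9, 8 and 6 in the SSC lists, while its covered bases were higher in every iNSC list, at 4449, 4579 and 4087, than in the SSC lists, at 4086, 3263 and 2536.

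Covered bases gave a more even split over the whole set than peak counts. In 6 members, Arid1b, Ss18, Chd6, Chd8, Chd9 and Bptf, every iNSC list covered more bases than any SSC list, against 17.5% of all genes with a peak. For Ss18 and Chd6 the margin was very narrow. In 8 members, Smarca2, Smarcc2, Dpf1, Brd7, Chd5, Smarca5, Ino80 and Chd1l, every SSC list covered more, against 15.6%. Of the 26 members with a peak in all 6 lists, 5 covered more in every iNSC list and 6 in every SSC list, against 28.2% and 8.47% of the 3967 such genes. The median ratio of covered bases, iNSC over SSC, was 1.17 in the 26 and 1.17 in the 3967. For each gene with no overlap the adjusted p was 0.302 (exact permutation test, n = 3 each, p = 0.1, the smallest possible).

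**Figure D4:**
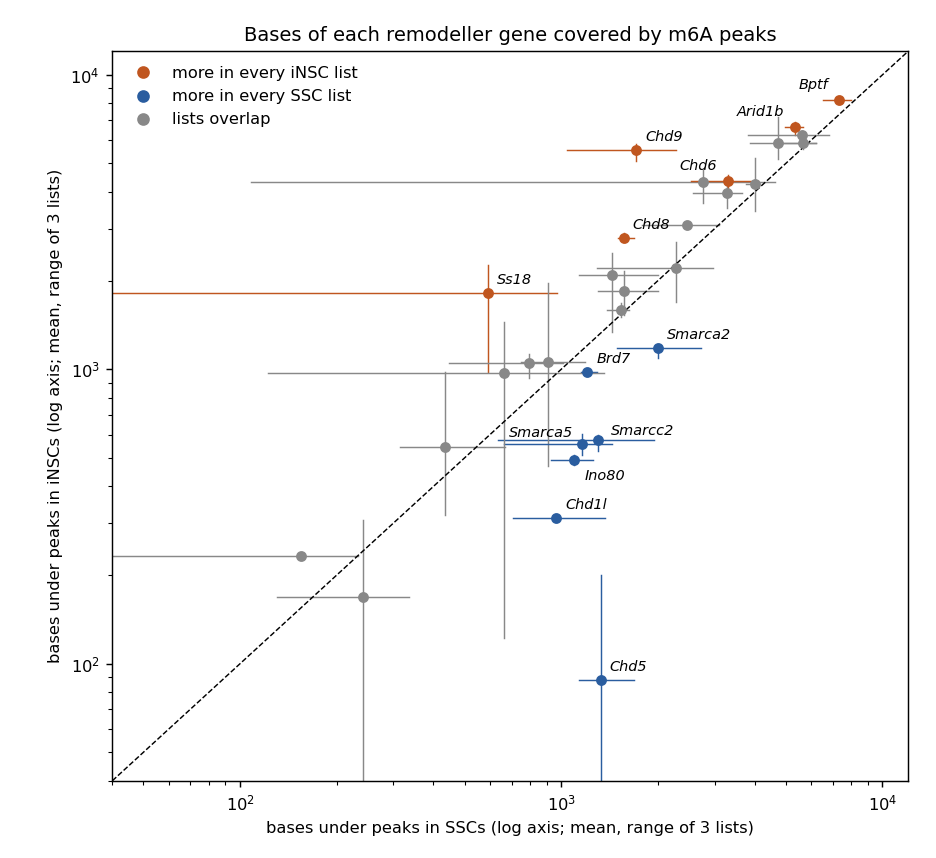
Bases under m6A peaks per gene in iNSCs (y axis, log) against SSCs (x axis, log), for members with a peak in both cell types; points are means of 3 lists, lines their range, lines that reach the lower or left edge go to 0, and the dashed line marks equal values. Chd9, Chd8 and Ss18 lie furthest above the line among genes whose lists do not overlap, and Chd5, Chd1l, Smarcc2 and Ino80 furthest below it.

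The ISWI genes were Smarca5, whose product SNF2H is the catalytic subunit of several spacing complexes, and Bptf, which encodes the largest subunit of NURF. Smarca5 had 4 peaks in each iNSC list and 7, 7 and 5 in the SSC lists. The covered bases of Smarca5 were 604, 556 and 512 in iNSCs and 1440, 1382 and 664 in SSCs. A Smarca5 region at chr8:80702128-80702235 was SSC-only, at the percentiles 95.1, 77.1 and 82.7. Bptf had 15, 15 and 16 peaks in iNSCs and 17, 14 and 15 in SSCs, 92 in all, and 9 of its 20 regions were in all 6 lists. Its covered bases, 8255, 8275 and 8117 in iNSCs and 7962, 6540 and 7415 in SSCs, were the highest of any member in both cell types.

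Ino80, the ATPase gene of the INO80 complex, had 2, 2 and 3 peaks in the iNSC lists and 10, 6 and 7 in the SSC lists. The covered bases of Ino80 were 513, 471 and 493 in iNSCs and 1106, 931 and 1251 in SSCs. None of its 16 regions was shared by all 6 lists. The peak at the annotated start printed above, which lies inside the gene span, made up most of the iNSC coverage. Among the SSC lists it was called in SSC 3 alone. Farther in, chr2:119381910-119381998 and chr2:119451330-119451450 were SSC-only. The best Ino80 peak stood at the percentiles 11.7, 26.8 and 54.0 in iNSCs and 85.8, 88.3 and 78.9 in SSCs. Srcap, which encodes an exchanger of variant histone, had 4, 5 and 7 peaks in iNSCs and 7, 3 and 4 in SSCs. Ep400, the ATPase gene of the TIP60 complex, had 8, 10 and 8 in iNSCs and 11, 5 and 8 in SSCs. Neither gene separated the cell types, although Ep400 held 2 iNSC-only regions.

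Chd1l, which encodes a remodeller activated by poly(ADP-ribose), had 2 peaks in each iNSC list and 9, 4 and 6 in the SSC lists, a difference of -4.33 that was -2.33 at equal list length. The covered bases of Chd1l were 313 in each iNSC list and 1365, 705 and 825 in the SSC lists. Its best peak in SSCs, at chr3:97570202-97570404, stood at the percentiles 92.2, 96.2 and 93.3 and was absent from the iNSC lists. A neighbouring region, chr3:97570904-97571067, was iNSC-only. Chd1l was the member with most SSC-only regions, 3 of 12. Hells, whose product acts in DNA methylation of repeats, had 3, 4 and 2 peaks in iNSCs and 5, 5 and 2 in SSCs.

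**Figure D5:**
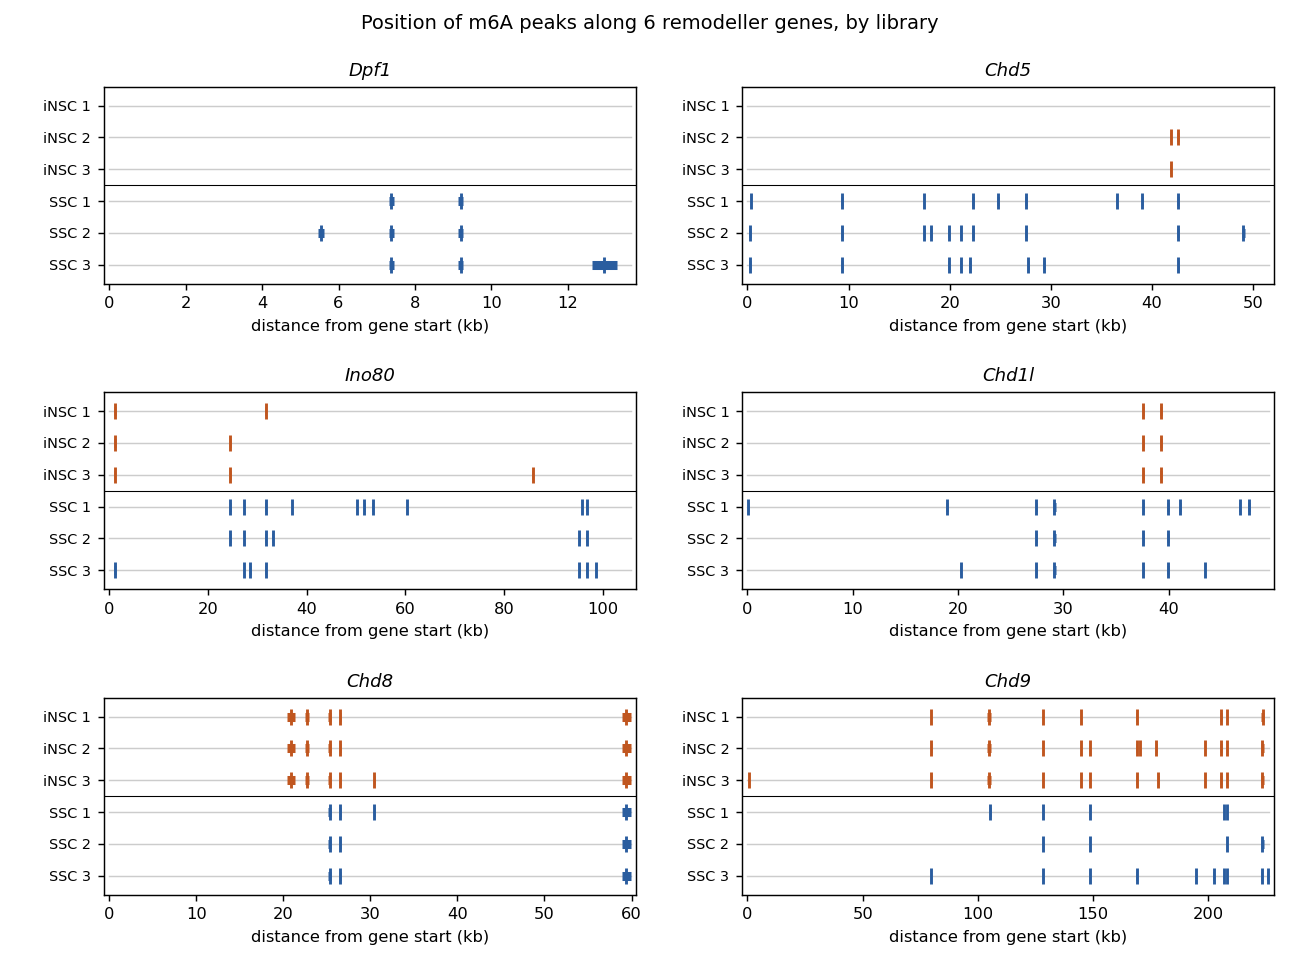
Position of every peak (tick at its centre, thick bar for its width) along 6 remodeller genes, as distance from the gene start in kb (x axis), in the 6 libraries (rows, iNSC lists above SSC lists). Dpf1, Chd5, Ino80 and Chd1l have more peaks in every SSC list, Chd8 has 2 regions in the iNSC lists alone, and Chd9 has more covered bases in every iNSC list.

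Many regions of the remodeller genes were called in the same place throughout. The 1179 remodeller peaks merged into 357 regions, of which 91 (25.5%) were called in all 6 lists and 107 in a single library. For the 47325 regions of all genes the share in all 6 lists was 10.1%. Only a gene with a peak in all 6 lists can hold such a region. Within genes of that kind the share was 28.6% for the members and 20.6% for all genes. In 75 regions of 20 genes an entry with identical start and end stood in every list. The share of such regions over all genes was not counted, so this shows no trait of remodeller genes. Of the 91 shared regions, 3 lay in the first 500 bases, 82 between and 6 in the last 2000 bases. The iNSC-only regions numbered 11 (3.08%, against 3.38% over all genes) and the SSC-only regions 17 (4.76%, against 5.6%). Inside the 26 genes with a peak in all 6 lists, 10 of 318 regions were iNSC-only (3.14%) and 13 were SSC-only (4.09%), against 3.53% and 4.05% of the regions of all such genes. These shares stood near the background. Without SSC 1 the members' regions that were iNSC-only numbered 22 and those that were SSC-only 27. Without SSC 2 the SSC-only regions numbered 28, and without SSC 3 the counts were 18 and 26. Leaving out a list can only keep or raise such counts.

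The iNSC libraries shared more of the bases covered in remodeller genes with each other than the SSC libraries did. The 3 pairs of iNSC lists shared 81.0% of those bases (range 79.8% to 82.8%), the 3 pairs of SSC lists 57.5% (51.0% to 63.2%) and the 9 pairs of an iNSC with an SSC list 56.2% (54.9% to 58.6%). The spread among the SSC lists was thus about as wide as the distance between the cell types.

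A peak of at least 1000 bases was present in every list in 10 genes, Arid1a, Arid1b, Bptf, Chd2, Chd6, Chd7, Chd8, Ep400, Smarce1 and Srcap. The share of all genes with such a peak in every list was not counted. The widest merged region called in all 6 lists, of 3689 bases, was chr17:5341363-5345051 in Arid1b. It was followed by chr7:73426652-73430000 at the end of Chd2, chr7:127557968-127561219 at the end of Srcap and chr4:133679008-133682055 at the end of Arid1a. The last 3 reach the annotated end of their gene. A merged width need not hold in each list. The widest Chd2 peak had 3349 bases in iNSC 1 and 1868, 1576, 1652, 1602 and 1863 in the other lists. In Arid1b the widest peak ranged from 1953 bases in SSC 1 to 3689 in iNSC 3. Wide peaks made up 12.4%, 11.3% and 12.7% of remodeller peaks in iNSCs and 7.30%, 7.69% and 6.05% in SSCs. Over all peaks the shares were 28.0%, 26.0% and 24.6% in iNSCs and 9.20%, 11.7% and 9.51% in SSCs.

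A list of 62 other remodeller and partner genes was counted in the same way. A peak was found in 56 of them, and 35 had a peak in all 6 lists. Kat5, the acetyltransferase gene of the TIP60 complex, was iNSC-only with 1 peak in each iNSC list, and 5 genes were SSC-only, against 2.17% and 11.3% of all genes with a peak. Cecr2, an ISWI partner gene with a role in neural tube closure and spermatogenesis, had no peak in the iNSC lists and 7, 7 and 8 in the SSC lists. Brd8, a bromodomain subunit gene of the TIP60 complex, had no peak in the iNSC lists and 3, 3 and 5 in the SSC lists. Ruvbl2, Znhit1 and Ss18l1 had none in the iNSC lists and 1 or 2 peaks in each SSC list. Ss18l1, the neuronal counterpart of Ss18, was named after its values were seen. In this list 1 gene had more peaks in every iNSC list and 8 had more in every SSC list, against 4.22% and 16.5% of all genes with a peak, with a median difference of -0.67 peaks.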

How the data were processed

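Each of the 6 deposited files was a peak list of 1 m6A immunoprecipitation library, with chromosome, start, end, name, score and strand. The labels describe 12 samples, of which the 6 inputs were not used here. The series is typed as MeDIP, while the labels' protocols describe pull-down of RNA, which was followed. Per the submitters' processing notes, the mm9 build, HISAT2 2.0.4 and cutadapt 1.9.3 were used. How peaks were called is not given in the sources used here. Peak edges fall on gene edges of GRCm38.p6, so coordinates are given on GRCm38, 1-based. The score per peak is as the authors deposited it, with no unit stated. It starts at 50, values of at least 3100 were taken as the cap, and it was used only as a percentile within its own list (ties at mid-rank, so the cap gives the highest percentile of a list).

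Of 118075 peaks, 112965 overlapped 1 protein-coding gene, 2859 lay over several genes and were given to the gene on their strand, 957 could not be assigned and 1294 lay outside genes. Strand came from RefSeq start windows for 17492 genes, including 30 of the members, and otherwise from over 90% of the peaks placed in the gene alone. Of peaks over 1 gene, 99.5% were on the RefSeq strand. Regions are peaks of all libraries merged at an overlap of at least 1 base on the same strand. A position in a gene is that of the peak's centre. Covered bases are those under any peak of the library.

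Means are given with the SD (n = 3 libraries each). The peak lists hold no counts, so no model of counts was fitted, and depth, intervals and detection limits are unknown. Exact permutation tests (smallest two-sided p 0.1) were adjusted by Benjamini-Hochberg over the 13197 genes with a peak. The iNSC-only and SSC-only calls were also run on simulated peaks planted in every list of a cell type. That run checks the assignment and counting of peaks, not the adjusted tests. Values in every library are given for members called in 1 cell type, members whose peak counts do not overlap, members with no peak and the 5 with most peaks, and by range or complex otherwise; further members are given beside their complex. Up to 4 genes per direction of the comparison list were to be named. The members and all gene lists were chosen with earlier results of these data known. Alternatives were lists of equal length, the better-scoring 50% of each list, 50% of the peak inside the gene, counting a peak for every gene, joining entries under 100 bases apart, a region overlap of 50%, 2 of 3 lists, each library left out, the replicate number as a block and, chosen after seeing the data, peaks on the strand of the gene only. Python 3.11.15, numpy 2.4.6 and pandas 2.3.3 were used.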

Additional observations from a re-analysis of the deposited data

How the results depend on the processing

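Limits of these lists come first. Peak calls depend on depth and on a threshold that is not given, input libraries were not analysed, and 3 libraries a group cannot reach a p under 0.1. Among the better-scoring 50% of each list, the difference iNSC minus SSC was -1.31 in peaks per remodeller gene with a peak, 2.67 points in the share of peaks in the last 2000 bases and 86.3 bases in median width. There the SSC-only genes numbered 2 (Chd5 and Chd1l), genes with more peaks in every iNSC list 0, those with more in every SSC list 11 (7 of them among the 9 named) and iNSC-only regions 4. In lists of equal length, the difference was -3.60 points in the share of genes with a peak, 0.36 in peaks per gene with a peak, a turned direction, and 1.36 points in the share in the last 2000 bases. There 4 genes had more peaks in every iNSC list (Chd6, Chd8, Chd9 and Ep400), 4 in every SSC list (Chd5, Smarca5, Ino80 and Chd1l, all among the 9 named), and SSC-only regions numbered 7. Shortening to 13913 entries removes peaks mostly from the SSC lists by construction. With a peak in 2 of 3 lists required, 3 genes were SSC-only (Smarcd1, Smarcd2 and Dpf1). Shares over all genes were not counted in these settings or with a library left out.

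With each library left out in turn, the difference ranged from -8.56 to -4.50 points in the share with a peak, from -0.83 to -0.22 in peaks per gene, from 0.56 to 1.09 points in the share in the last 2000 bases and from 28 to 42 bases in width. The counts ranged from 1 to 2 SSC-only genes, 1 to 2 genes with more peaks in every iNSC list and 9 to 12 with more in every SSC list. The regions ranged from 12 to 22 iNSC-only and from 19 to 28 SSC-only. By construction these counts can only stay or rise when a list is left out. The 9 named genes were therefore kept each time by the rule itself. No difference of a single named gene turned its direction in the settings that could change it, but that of Chd8 was 0 among the better-scoring 50% and that of Smarcc2 was 0 at equal length. The deviations of same-numbered libraries correlated at -0.03, -0.07 and 0.20, and those of differently numbered libraries at -0.19 to 0.22. With 3 libraries a group, these values cannot show whether the numbers pair the libraries. With the replicate number as a block the differences are the same by construction, -0.62 in peaks per gene among them, and the smallest p was 0.25 (exact sign-flip test). The cause of these shifts was not tested.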

Other observations

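Of the 1179 remodeller peaks, 9 are listed on the strand opposite to their gene. Besides the 4 in Chd9 these are 2 around the start of Srcap, in iNSC 3 and SSC 1, and 1 each in Smarcd1 (SSC 3), Actl6a (SSC 1) and Chd3 (iNSC 2, 6 bases). The Smarcd1 entry, chr15:99702176-99702462, begins before the annotated start of the gene, and without it Smarcd1 would have 1 peak in SSC 3.

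Peaks at the score cap made up 22.2% ± 0.760 of the remodeller peaks in iNSCs and 14.5% ± 3.68 in SSCs, against 16.2% ± 1.34 and 5.26% ± 2.03 of all peaks (SD, n = 3 each).

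Peaks per 10 kb of span are means over the 6 lists. Among the 34 members with a peak they ranged from 0.018 in Dpf3 to 2.21 in Brd7. Of the 5 members with most peaks, Chd1 had 1.70 per 10 kb, Bptf 1.55, Chd2 1.46, Smarcc1 1.26 and Chd7 0.693.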
